A study of Mus musculus with 6 samples.

Results

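Cyclin-dependent kinase inhibitors are the proteins that hold a cell back from division by blocking the kinases which drive it through the cell cycle. All 7 genes of this kind, Cdkn1a, Cdkn1b and Cdkn1c of the CIP/KIP family and Cdkn2a, Cdkn2b, Cdkn2c and Cdkn2d of the INK4 family, were examined in glomeruli of dendrin knockout mice and of littermate control mice. They were followed through every probe set that the array annotation assigned to 1 of them and to no other gene, which gave 9 of the 45101 probe sets of the array for 7 of the 18194 genes represented. The tested mice were 3 dendrin knockout animals (genotype Dendrin KO), whose dendrin coding sequence was replaced in the germline by a cassette with eGFP and a neomycin resistance gene, so that dendrin was missing from all cells and not from podocytes alone. They were compared with 3 littermate control animals (wild type). All 6 mice were 13 months old. The labels give their genetic background as 129S6SvEv/C57BL6, the strain of the targeted stem cells according to the methods, after which the line was backcrossed for several generations to C57BL/6, and the total RNA of isolated kidney glomeruli from each was measured on 1 Affymetrix whole-genome expression array. The knockout cassette was present in knockout mice only, so that its own effects and those of the loss of dendrin cannot be told apart. The same holds for any sequence of the stem cell strain that stayed beside the targeted locus in knockout mice.

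The CIP/KIP proteins p21 (Cdkn1a), p27 (Cdkn1b) and p57 (Cdkn1c) bind complexes of cyclins with their kinases, whereas the INK4 proteins p16 (Cdkn2a), p15 (Cdkn2b), p18 (Cdkn2c) and p19 (Cdkn2d) bind the kinases Cdk4 and Cdk6 and keep them from joining D-type cyclins. The mature podocyte is a cell that does not divide, and p27 and p57 are known as markers of its quiescent state. p21 is induced by p53 after DNA damage and by several other signals, and p16 and p21 are widely used as markers of senescent cells.

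Values are GCRMA values, the background-corrected and normalized signal of a probe set on the log2 scale, and differences are knockout minus control on that scale. A probe set with a mean under log2 4 over the 6 arrays is called dim, since the method leaves probe sets without signal near its lowest value of 2.20. The targeted gene was checked first. The value of Ddn, which encodes dendrin, was 3.80, 3.81 and 3.80 in the knockout mice, against 12.22, 12.81 and 12.31 in the control mice (limma, adjusted p = 0.0197), and no other probe set passed an adjusted p of 0.05 (1 of 45101, 0.00222%). As to the tissue, all 12 podocyte marker genes measured were above the dim level, whereas 10 of 15 marker genes of the later tubule, from the loop of Henle to the collecting duct, were dim. Control 2 stood apart from the other arrays. The intensities of the 15 genes of the later tubule, unlogged and summed, came to 2892 to 3992 in knockout, against 2912 to 13440 in control, with the highest sum in control 2. Those of 16 leukocyte genes came to 19440 to 38880 in knockout and to 5617 to 34980 in control, with the lowest in control 2. Values without this array are therefore given beside the results that it moved most. RNA from whole glomeruli cannot tell fewer cells of a type from less RNA per cell.

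Of the 7 genes, Cdkn1a and Cdkn2d were higher and Cdkn1b was lower in all 3 knockout mice than in all 3 control mice, while the values of Cdkn1c, Cdkn2b and Cdkn2c overlapped between the groups and Cdkn2a gave no signal. In all, 7 of the 9 probe sets, of 6 genes, were above the dim level. Of these, 4 probe sets of 3 genes did not overlap between knockout and control, whereas 13.7% of all probe sets above the dim level did not overlap. A total of 3 lay above control (8.03% of all probe sets above the dim level) and 1 below it (5.65%). None of the 9 passed the criterion of the study, a fold over 1.5 in either direction with an unadjusted p under 0.05, which 0.382% of all probe sets above the dim level passed. At an unadjusted p under 0.05, limma called 1 member probe set, that of Cdkn1b, against 8.12% of all probe sets above the dim level, and SAM, the test named in the methods of the study, called 3 of the 9, against 5.18% of all probe sets of the array. The adjusted p of every member was 1 (limma, Benjamini-Hochberg over all probe sets). The median size of the difference was 0.33 over the 7 member probe sets and 0.090 over all probe sets above the dim level.

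**Figure D1:**
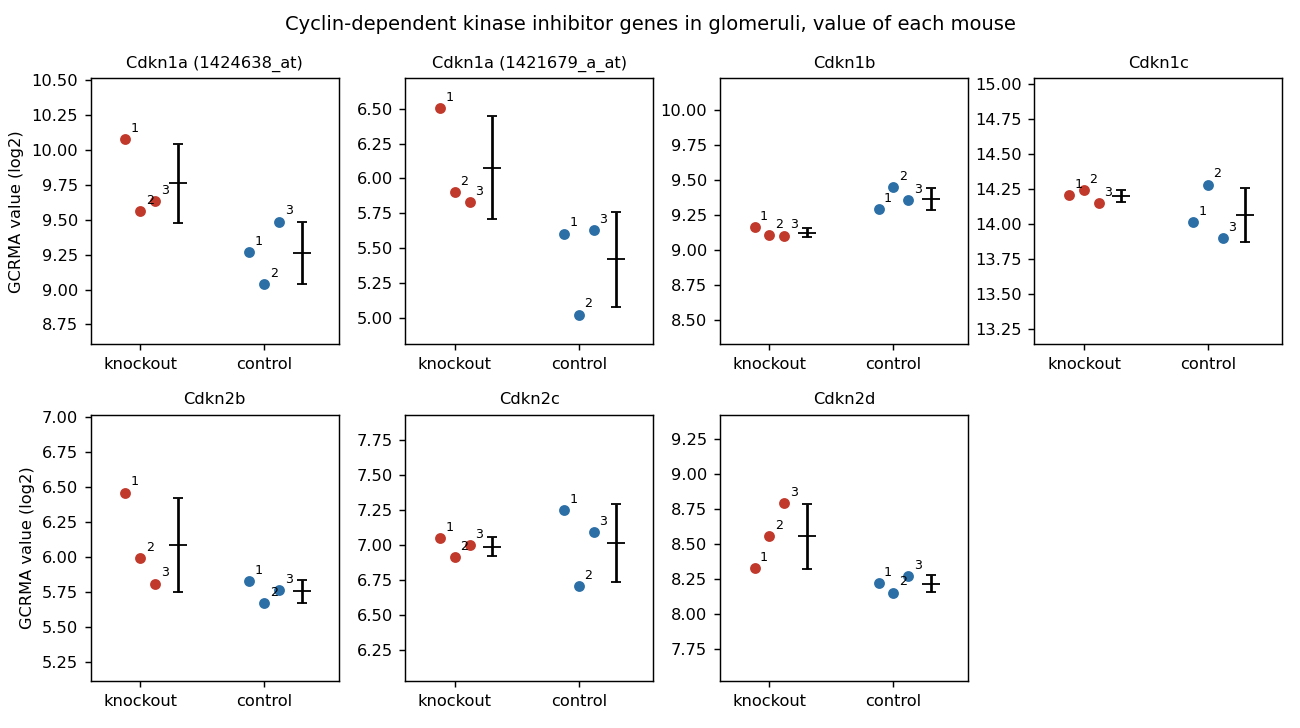
GCRMA value (log2) of each mouse for the 7 member probe sets above the dim level, knockout (red) left of control (blue), with the replicate number beside each point, the mean and SD (n = 3) to the right of the points, and the same span on each vertical axis. Both probe sets of Cdkn1a and that of Cdkn2d lie higher in all knockout mice, Cdkn1b lies lower in all of them, and the groups overlap for Cdkn1c, Cdkn2b and Cdkn2c.

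The sequences before the transcription starts of the 3 genes whose groups did not overlap are shown because the results turn on these genes. Transcription factors are known to act near gene starts, as p53 does at Cdkn1a. Each run holds the 250 bases before a start (RefSeq, GRCm38.p6), read in the direction of transcription. Promoters were found there for 6 of the 7 genes, in 9 windows. In the first Cdkn1a window the capitals mark a match of 20 bases to the p53 consensus site with at most 1 base off, and in the others they mark the GC box GGGCGG on either strand. No window of a member held a p53 site without a base off, after which 1 base off was allowed.
Cdkn1a, first start, chr17:29090729-29090978, plus strand: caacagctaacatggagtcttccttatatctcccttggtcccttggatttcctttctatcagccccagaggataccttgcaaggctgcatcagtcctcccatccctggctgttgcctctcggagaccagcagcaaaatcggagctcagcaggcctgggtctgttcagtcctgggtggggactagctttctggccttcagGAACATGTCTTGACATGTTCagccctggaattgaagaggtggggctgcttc
Cdkn1a, second start, chr17:29093519-29093768, plus strand: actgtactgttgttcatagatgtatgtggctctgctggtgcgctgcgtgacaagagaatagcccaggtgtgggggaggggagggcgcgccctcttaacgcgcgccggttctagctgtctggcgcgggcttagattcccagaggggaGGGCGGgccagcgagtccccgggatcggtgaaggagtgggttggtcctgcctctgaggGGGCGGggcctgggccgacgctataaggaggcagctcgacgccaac
Cdkn1b, chr6:134920151-134920400, plus strand: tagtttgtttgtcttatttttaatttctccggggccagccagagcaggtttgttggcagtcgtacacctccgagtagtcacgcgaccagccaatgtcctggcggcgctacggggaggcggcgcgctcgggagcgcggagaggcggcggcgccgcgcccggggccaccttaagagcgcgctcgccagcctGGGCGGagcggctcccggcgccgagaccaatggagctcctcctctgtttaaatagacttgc
Cdkn2d, chr9:21291210-21291459, minus strand: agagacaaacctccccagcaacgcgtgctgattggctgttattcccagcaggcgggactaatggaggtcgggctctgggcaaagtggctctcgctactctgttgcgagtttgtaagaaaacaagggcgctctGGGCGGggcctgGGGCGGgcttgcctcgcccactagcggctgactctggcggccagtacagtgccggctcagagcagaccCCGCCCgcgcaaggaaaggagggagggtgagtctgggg

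The p53 site began 51 bases before the first start of Cdkn1a. Such a site was found in 15 of 32851 windows of the same length before all gene starts (0.0457%), and in no other window of a member. GC boxes were at 2 places before the second start of Cdkn1a, at 1 place before that of Cdkn1b and at 3 places before that of Cdkn2d. They were not particular to these genes, with 2 in the first window of Cdkn2a and 3 in that of Cdkn2c. At least 1 was held by 32.7% of all windows. The E-box CACGTG (6.02% of all windows) and the forkhead motif GTAAACA (3.17%), each searched on both strands, were in none of the 9 windows. The motif CCAAT (33.8% of all windows), not marked above, was at 2 places before Cdkn1b and at 1 place before Cdkn2d. It was in no other window of a member. The motifs do not overlap each other. A match describes the letters of a window and not the binding of a factor.

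Cdkn1a, which encodes p21, was represented by 2 probe sets, and both were higher in all knockout mice. The brighter of them (1424638_at) had values of 10.08, 9.56 and 9.63 in the knockout mice, against 9.27, 9.04 and 9.49 in the control mice. Knockout 1 was the highest and control 2 the lowest of the 6 mice, and the gap between the groups was 0.077. The mean was 9.76 ± 0.28 in knockout and 9.26 ± 0.22 in control glomeruli (SD, n = 3 each), a difference of 0.49 (standard error 0.20, 95% confidence interval -0.041 to 1.03) or 1.41-fold. The other probe set (1421679_a_at) had values of 6.50, 5.90 and 5.83 in knockout and 5.61, 5.03 and 5.63 in control. The knockout mean of 6.08 ± 0.37 stood against a control mean of 5.42 ± 0.34 (SD, n = 3 each), a difference of 0.66 (standard error 0.28, 95% confidence interval -0.096 to 1.41) or 1.58-fold. Here, too, knockout 1 was highest and control 2 lowest. The place of the probes relative to the starts shown above was not analysed here. The unadjusted p values of limma were 0.0629 and 0.0735, so that the fold of the second probe set exceeded 1.5 but its p missed the criterion. When limma was fitted to probe sets with a mean of at least log2 4 alone, or to those whose values span more than 0.1, the same difference had an unadjusted p of 0.0395 and 0.0305 and passed the criterion, as did 0.566% and 0.613% of the probe sets in these fits. Its adjusted p values were 0.611 and 0.739 there (limma). Groups that do not overlap stay apart with any 1 array left out, so that leaving out arrays tests the size of the differences alone. Without control 2, the differences were 0.38 and 0.46, and without knockout 1 they were 0.33 and 0.45. In an exact permutation test, both had a two-sided p of 0.1, the smallest that 3 mice against 3 allow.

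By root mean square difference over the 6 arrays, after each gene was centred on its own mean, the genes whose profile lay nearest to that of Cdkn1a were Tnfrsf12a, Neurl1b and Hip1r, at 0.076, 0.097 and 0.099 (log2), among 10360 genes above the dim level. Tnfrsf12a encodes the receptor of the cytokine TWEAK. Its values were 7.64, 7.25 and 7.10 in knockout and 6.94, 6.64 and 7.12 in control, so that the groups overlapped, with knockout 3 just below control 3. The difference of Neurl1b was 0.49 (standard error 0.18) and that of Hip1r was 0.46 (standard error 0.14), and in both genes the knockout values lay above the control values without overlap. These genes were picked for their likeness to Cdkn1a on the same arrays, so that such differences follow largely from the choice.

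Cdkn1b, which encodes p27, was lower in the knockout mice with little spread between mice. The values were 9.16, 9.11 and 9.10 in the knockout mice, against 9.29, 9.45 and 9.36 in the control mice (1434045_at). Every knockout mouse lay below every control mouse, by a gap of 0.13. The mean was 9.12 ± 0.034 in knockout and 9.37 ± 0.078 in control glomeruli (SD, n = 3 each), and the difference of -0.24 (standard error 0.047, 95% confidence interval -0.37 to -0.11) had an unadjusted p of 0.00567 and an adjusted p of 1 (limma). In size it was 1.18-fold, under the fold of 1.5 that the study required. It was the only member whose confidence interval did not include 0. Without control 2 the difference was -0.20, and with 1 array left out in turn it was between -0.28 and -0.20. The other probe set of Cdkn1b (1419497_at) had the value 2.20 on all 6 arrays and gave no measurement of the gene.

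Cdkn1c encodes p57, which in the mature glomerulus is found in podocytes, and its values overlapped between the groups. They were 14.21, 14.24 and 14.15 in the knockout mice, against 14.01, 14.28 and 13.90 in the control mice (1417649_at). The knockout mice lay close together, and the control mice included both the highest value, in control 2, and the lowest, in control 3. The mean was 14.20 ± 0.046 in knockout and 14.07 ± 0.20 in control glomeruli (SD, n = 3 each), a difference of 0.14 with a 95% confidence interval of -0.17 to 0.44 (standard error 0.11, unadjusted p = 0.287 from limma). This interval does not reach a change of 1.5-fold in either direction. Without control 2, all knockout mice were above the other control mice, with a difference of 0.24 and an unadjusted p of 0.0142 (limma, adjusted p = 0.677).

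The level of podocyte marker genes moved with that of Cdkn1c. The list of 12 measured markers, chosen with earlier results of these data known, holds among others Nphs1 (nephrin), Synpo and Wt1. All 12 were above the dim level and all 12 had a higher mean in knockout, with a median difference of 0.13, where 60.0% of the 10379 genes above the dim level had a higher mean and the median was 0.030. Their median deviation from the mean of the 6 arrays was 0.014, 0.088 and 0.11 in knockout mice, against -0.18, 0.10 and -0.16 in controls. The 12 endothelial marker genes mostly ran the other way, with 2 higher and 10 lower in knockout and a median difference of -0.13. Of these, 4 were lower without overlap (4.5% of all genes above the dim level were) and 1, Sost, was higher without overlap (9.36%). Sost had the largest difference of this list, 0.70 (standard error 0.14), and passed the criterion. The unlogged intensities of the endothelial genes summed to 70990 to 76910 in knockout and to 76580 to 80010 in control. Cdkn1c was low on the same control arrays, 1 and 3, as the podocyte markers. The unlogged intensities of the podocyte list summed to 117000 to 122900 in knockout and to 106000 to 128000 in control. Each array was then shifted by the median deviation of its podocyte markers, a setting chosen after these values had been seen. Such a shift moves the difference of every gene down by the same amount, so that these moves are not particular to a gene. The difference of Cdkn1c became -0.017 (14.13 in knockout and 14.15 in control). That of Cdkn1b became -0.40, and its groups still did not overlap. The differences of the probe sets of Cdkn1a were then 0.34 and 0.50 and that of Cdkn2d was 0.19, and for these the groups overlapped.

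**Figure D2:**
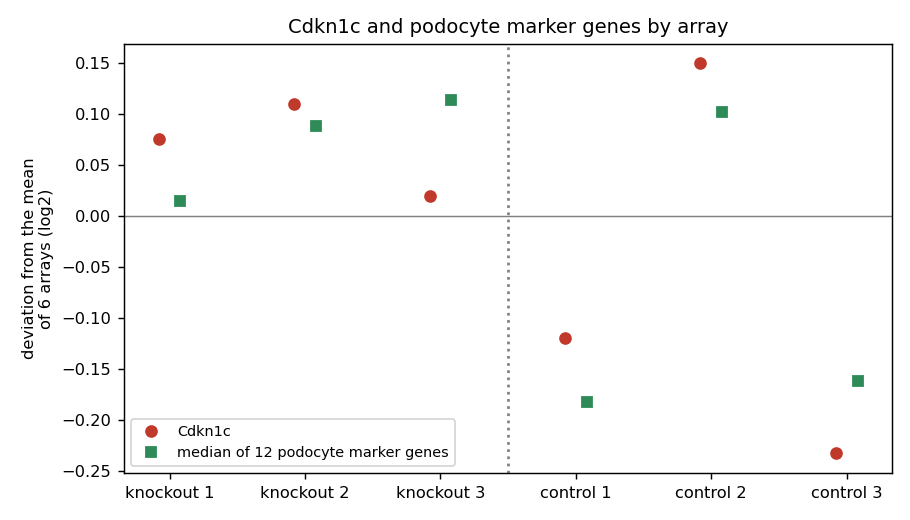
Deviation from the mean of the 6 arrays (log2) of Cdkn1c (red circles) and of the median of 12 podocyte marker genes (green squares) on each array, knockout arrays left of the dotted line and control arrays right of it. Both are below 0 on control 1 and control 3 and above 0 on the other 4 arrays.

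Of the INK4 genes, Cdkn2d was higher in all knockout mice. It encodes p19, an INK4 inhibitor known from neurons that no longer divide. The values were 8.33, 8.56 and 8.79 in the knockout mice, against 8.22, 8.15 and 8.28 in the control mice (1416253_at). The groups were apart by only 0.053, between knockout 1 and control 3, and the knockout mice were spread more widely than the control mice. The mean was 8.56 ± 0.23 in knockout and 8.22 ± 0.060 in control glomeruli (SD, n = 3 each), a difference of 0.34 (standard error 0.13, 95% confidence interval -0.020 to 0.70, unadjusted p = 0.0588 from limma) or 1.27-fold. With 1 array left out in turn it was between 0.22 (without knockout 3) and 0.46 (without knockout 1), and it was 0.31 without control 2.

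Cdkn2b, which encodes p15, an inhibitor induced by TGF-beta, had a higher mean in knockout that rested mostly on 1 mouse. The values were 6.46, 5.99 and 5.81 in the knockout mice, against 5.83, 5.67 and 5.77 in the control mice (1449152_at). Knockout 3 lay below control 1, so that the groups overlapped. The knockout mice averaged 6.09 ± 0.33, against 5.76 ± 0.081 in the control mice (SD, n = 3 each), a difference of 0.33 (standard error 0.19, 95% confidence interval -0.18 to 0.85, unadjusted p = 0.152 from limma). Without knockout 1, which was also the highest mouse for Cdkn1a, it was 0.15, and without control 2 it was 0.29.

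Cdkn2c (1416868_at), which encodes p18, averaged 6.99 ± 0.069 in knockout and 7.02 ± 0.28 in control glomeruli (SD, n = 3 each). Its values were 7.05, 6.91 and 6.997 in the knockout mice, against 7.25, 6.71 and 7.09 in the control mice, whose extremes enclosed all knockout values. The difference was -0.029 (standard error 0.16, 95% confidence interval -0.46 to 0.40, unadjusted p = 0.864 from limma). Its sign depended on single arrays, with 0.088 without control 1 and -0.18 without control 2, and with control 2 left out all knockout mice lay below the other control mice.

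Cdkn2a, whose locus encodes both p16 and p19Arf, was represented by 1 probe set (1450140_a_at), with the value 2.20 on all 6 arrays, the lowest value of the table. Which of its 2 RefSeq transcripts the probes match was not analysed here. The array thus gave no signal for this senescence marker in glomeruli of either group at 13 months of age, and no difference could be measured. Cdkn2a and Cdkn2b lie side by side on chromosome 4, where Cdkn2c is also found, and the other 4 genes are on chromosomes 6, 7, 9 and 17.

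**Figure D3:**
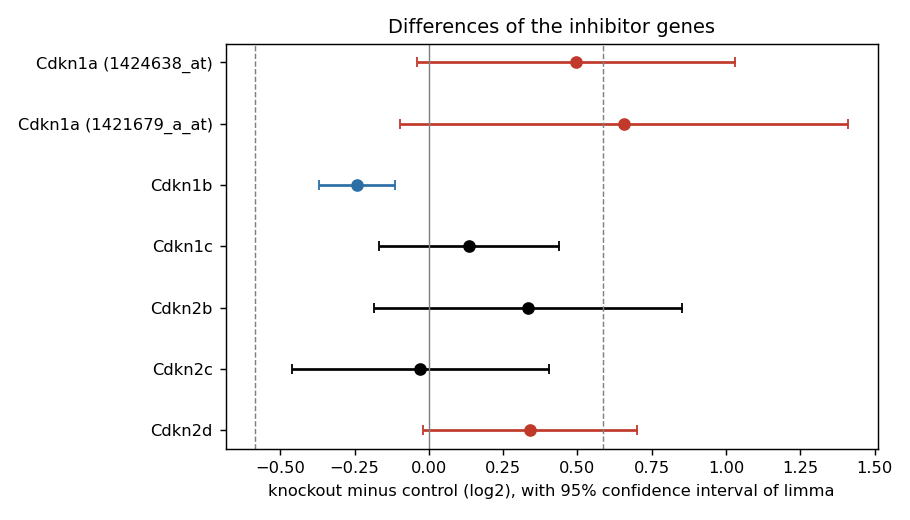
Difference between knockout and control (log2) of the 7 member probe sets above the dim level, with the 95% confidence interval of limma. Dashed lines mark a fold of 1.5, red and blue mark probe sets with all knockout mice higher or lower than all control mice, and only the interval of Cdkn1b (-0.37 to -0.11) does not include 0.

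Few of the genes that act with or upon these inhibitors differed past the criterion. A total of 161 genes in 8 lists were considered, of which 151 were measured by a probe set of their own and 131 were above the dim level, where a gene had several probe sets, the one with the highest mean was taken. The lists were chosen with earlier results of these data known, so that their counts are not independent evidence. Of the 131 genes, 75 had a higher and 56 a lower mean in knockout. As a base for the counts of each list, 60.0% of all genes above the dim level had a higher mean in knockout. Only 2 of the 151 passed the fold and p criterion (45 of all 18194 genes did so, 0.247%), both higher in knockout, and none passed an adjusted p of 0.05 (limma). Knockout and control did not overlap for 15 genes, of which 7 were higher (9.36% of all genes above the dim level were) and 8 lower (4.5%).

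Among p53 and its target genes, which were examined because Cdkn1a is the best known of these targets, 14 of the 21 above the dim level had a higher and 7 a lower mean in knockout, with a median difference of 0.067 against 0.030 for all genes. Gadd45a, a growth arrest gene induced by DNA damage, passed the criterion. Its values were 11.31, 10.97 and 10.87 in the knockout mice, against 10.25, 10.66 and 10.33 in the control mice, a difference of 0.64 (standard error 0.18). As for Cdkn1a, knockout 1 was the highest. The call ended without control 1 (0.56), without control 3 (0.60) and without knockout 1 (0.51), and also with the replicate number as a block or with arrays centred on podocyte markers (0.48). The other targets with the largest differences overlapped between the groups, with 0.83 for Ddit4, an inhibitor of mTOR signalling, -0.69 for the kinase gene Plk2 and 0.29 for the proapoptotic gene Bbc3.

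Of the genes of replication and mitosis, whose expression the inhibitors hold down, 13 of 16 above the dim level had a higher mean in knockout, with a median of 0.083 (0.049 without control 2 and 0.048 without knockout 3). Rrm2, a subunit of ribonucleotide reductase, passed the criterion with 4.996, 4.97 and 4.87 in knockout and 4.46, 3.32 and 3.51 in control glomeruli (difference 1.18, standard error 0.34), where the control mean of 3.76 is under the dim level. This call ended in 5 of the 6 fits with an array left out, control 1 being the exception, and the difference was 0.96 without control 2. Cdk1, the kinase of mitosis, was at 5.69, 5.48 and 5.27 in knockout and at 5.20, 3.70 and 5.16 in control. Rrm2, Top2a, Ccnb2 and Cdk1 all had their lowest value in control 2, where leukocyte genes were lowest as well, and the part of other cell types in these differences was not tested.

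The cyclins and kinases of G1 and S phase, on which the inhibitors act, had a median difference of 0.0010 (-0.048 without control 2), with 7 higher and 6 lower of 13 and none past the criterion. The D-type cyclin genes Ccnd2 and Ccnd3 differed by -0.17 and 0.13, and Ccna2 by 0.38 (standard error 0.15). Ccne1 differed by -0.31 (standard error 0.47), with overlapping groups. Among the pocket proteins and E2F factors, which are the substrates of these kinases and the transcription factors they release, 5 of 9 were higher and 4 lower (median 0.028, and -0.028 without control 2). E2f1 had the largest difference, 0.32 (standard error 0.14), and Rb1 was at 0.12.

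Of 14 genes of p27 and p57 turnover and transcription, 11 had a higher and 3 a lower mean in knockout, with a median of 0.078 (0.049 without control 1). Cul1, the scaffold of the ubiquitin ligase that marks p27 for degradation, was at 10.16, 10.28 and 10.23 in knockout and 10.07, 9.91 and 9.996 in control, a difference of 0.23 (standard error 0.056). Men1, which encodes menin, a cofactor for the transcription of Cdkn1b, was higher by 0.21 (standard error 0.086) in all knockout mice. None of this list passed the criterion.

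Among 20 Polycomb genes and other repressors of the Ink4 and Arf genes, 9 were higher and 11 lower, with a median of -0.024 (-0.076 without control 2). Of these, 3 were lower in all knockout mice (4.5% of all genes above the dim level were). Only 1, Kdm2b, was higher in all knockout mice (9.36%), by 0.16 (standard error 0.042). Cbx7, a Polycomb protein known to repress the Cdkn2a locus, had values of 6.94, 7.19 and 6.85 in knockout and 7.41, 7.68 and 7.50 in control, a difference of -0.53 (standard error 0.13). A second probe set of this gene was at 5.03, 5.11 and 5.05 in knockout and 6.16, 6.95 and 6.09 in control. That difference of -1.34 (standard error 0.27) passed the criterion. Cbx7 lies on the same chromosome as the targeted dendrin locus. Whether stem cell sequence near that locus differed between the groups was not tested. Cbx6 differed by -0.28 and Eed, a subunit of the complex that methylates histone H3, by -0.23. Tbx2 was higher by 0.24 (standard error 0.18), with overlapping groups. The probe set of Cdkn2a gave no signal on any array of either group, so that a change of that gene could not be measured. Of 22 activators of Cdkn1a and the Ink4 genes, 6 were higher and 16 lower (median -0.067). The largest differences were 0.31 for Cebpb (standard error 0.41) and -0.23 for Ets1 (standard error 0.16). Cebpd differed by 0.18 (standard error 0.23), and the groups overlapped for all of these. The factor gene Klf4 was lower by 0.21 in all knockout mice, by a gap of only 0.0053. Of this list, 2 genes were lower without overlap (4.5% of all genes above the dim level were). Of 16 secretory and marker genes of senescence, 10 were higher and 6 lower (median 0.084, and -0.048 without control 2), and all overlapped between the groups. The matrix protease gene Mmp13 had the largest difference of this list, 2.01, with 9.61, 9.29 and 9.34 in knockout and 8.88, 3.93 and 9.39 in control, where control 2 alone was low.

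**Figure D4:**
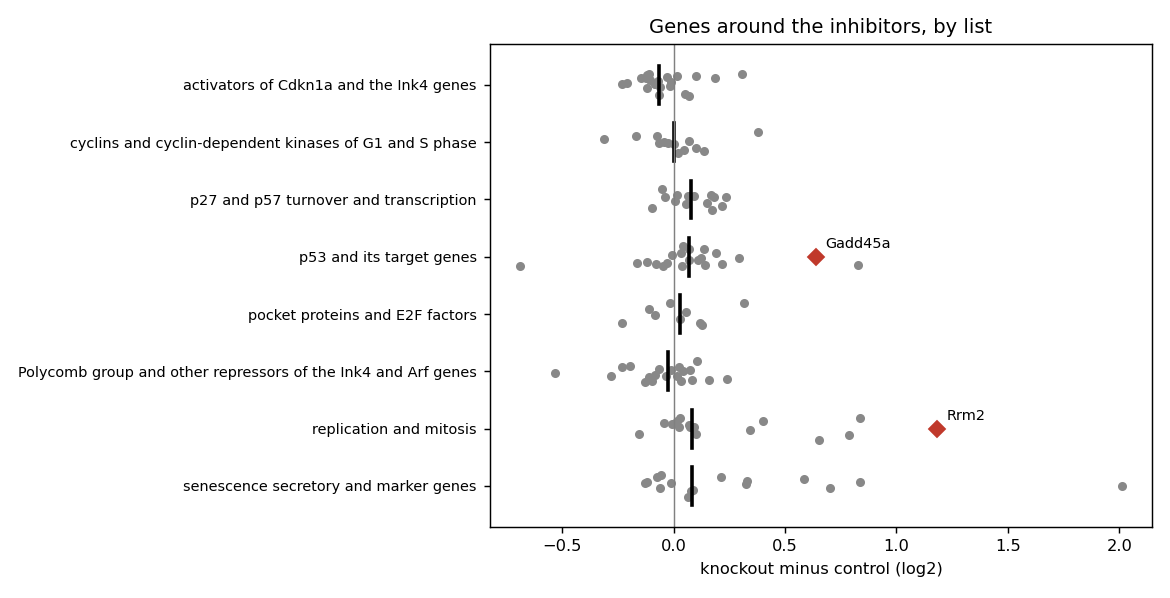
Difference between knockout and control (log2) of the genes above the dim level in 8 lists around the inhibitors. Each point is 1 gene, black bars are list medians, and red diamonds are genes past the fold and p criterion, which are Gadd45a (0.64) and Rrm2 (1.18).

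**Figure D5:**
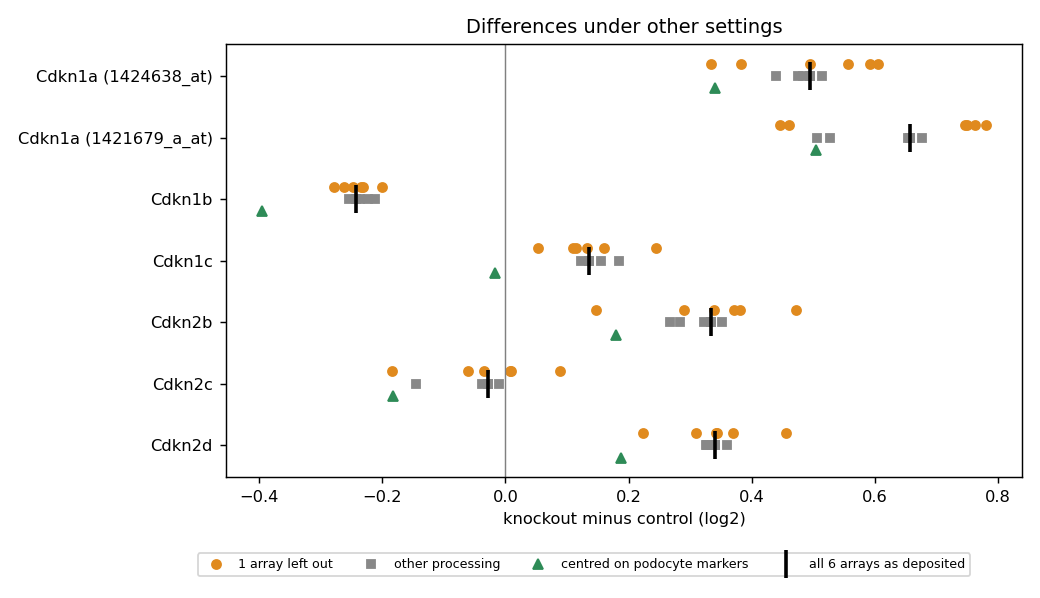
Differences between knockout and control (log2) of the 7 member probe sets with all arrays as deposited (black bars), with 1 array left out (orange), with other processing (grey) and with arrays centred on podocyte markers (green). Both probe sets of Cdkn1a, Cdkn2b and Cdkn2d stay above 0 and Cdkn1b below 0 in all of them, whereas Cdkn1c and Cdkn2c cross 0.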

How the data were processed

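Total RNA of glomeruli isolated from 3 dendrin knockout and 3 littermate control mice was hybridized to 1 array per mouse. The authors processed the raw intensities with GCRMA (version 2.30.0), which adjusts the background by probe sequence, quantile normalizes the arrays and summarizes probe sets, and deposited log2 values of 45101 probe sets. Raw intensities were not analysed here. The platform annotation paired 34958 probe sets with 1 gene symbol, 932 with several and 9211 with none. Arrays give no read depth, and precision is limited by their number.

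The genotype label of each array set its group. Knockout and control were compared with limma (version 3.58.1, R 4.3.3; lmFit and eBayes, two-sided) without covariates, and every probe set entered the fit. Residual degrees of freedom were 4 and the prior had 0.312, and 16139 probe sets had the same value on all arrays. P values were adjusted by Benjamini-Hochberg over all probe sets. The procedure was tested on simulated data in which probe sets varied independently. That test does not cover shifts shared by many genes of an array. The members and gene lists were chosen with earlier results of these data known. Named genes are all members and, of the lists around the inhibitors, the genes past the criterion. Otherwise genes were named from among the 4 per list with the largest differences above the dim level, and not all of these are given. The 3 genes nearest in profile to a member that spans more than 1 (log2) were named as well. The second Cbx7 probe set, Kdm2b and the marker gene Sost were named after their values were seen. Alternatives were SAM (20 permutations), other priors, filters, normalizations, an offset of 16, array weights, 1 probe set for each gene, a fold above 2, a block for the replicate number and the omission of each array. Replicates are separate mice. Same-numbered arrays of knockout and control had correlated deviations from their group means of 0.0949, 0.352 and 0.248, and no source ties the numbers to a litter or batch.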

Additional observations from a re-analysis of the deposited data

How the results depend on the processing

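The differences of Cdkn1a, Cdkn1b, Cdkn2b and Cdkn2d kept their sign under every alternative run, and no member passed an adjusted p of 0.05 under any. The sign of Cdkn2c turned with some single arrays left out (range -0.18 to 0.088), with 0.088 without control 1, 0.0087 without control 3 and 0.0080 without knockout 2, and that of Cdkn1c with arrays centred on podocyte markers (-0.017), which was chosen after the data had been seen. The number of member probe sets past the fold and p criterion was 0, and 1 (Cdkn1a) with a filter on the mean at log2 4 or on the range. At an unadjusted p under 0.05 the number was 1 with all arrays, and 3 with SAM (5.18% of the probe sets tested), 4 with the filter at log2 4 (8.06%), 3 with that at log2 6 (8.6%), 4 with the range filter (6.69%) and 5 with median centring (46.6%). With 1 array left out it was 1 to 2, the 2 being reached without control 2 (with Cdkn1c, 5.73%) and without knockout 1 (with Cdkn2d, 4.08%). The replicate block left 1 member probe set at an unadjusted p under 0.05, that of Cdkn1b (-0.24), and ended the call of Gadd45a. It rests on numbers that no source ties to a pairing. Every array correlated best with that of its own number in the other group, but control 1 did so by little. Its correlation was 0.0949 with knockout 1 and 0.0943 with knockout 3. The median of the Polycomb list was -0.059 with array weights. With 1 array left out, list medians ran from -0.076 to -0.016 for the Polycomb list (lowest without control 2), from -0.071 to -0.00079 for the activators (without control 3), from -0.048 (without control 2) to 0.063 (without control 1) for cyclins and kinases, from 0.055 to 0.12 for p53 targets (highest without knockout 1), from -0.028 (without control 2) to 0.058 for pocket proteins and E2F factors, from 0.048 (without knockout 3) to 0.12 (without control 1) for replication and mitosis, from 0.049 (without control 1) to 0.11 (without control 2) for p27 and p57 turnover and from -0.048 (without control 2) to 0.46 (without control 3) for senescence genes. The cause of these changes was not tested. Signal over background limits Cdkn2a, which had none.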

Other observations

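Genes that share the name of the inhibitors without being members were looked at after their values had been seen. Cdkn2aipnl, named for its likeness to Cdkn2aip, was higher in all 3 knockout mice by both of its probe sets. The brighter had values of 9.48, 9.40 and 9.46 in knockout and 9.24, 9.15 and 9.23 in control glomeruli, a difference of 0.24 (standard error 0.038, limma adjusted p = 0.921), and the other differed by 0.19 (standard error 0.068, adjusted p = 1 from limma). Cdkn2aip, which encodes a protein that binds p19Arf, differed by 0.047 and 0.045 on its 2 probe sets, with overlapping groups. Cdkn3, which encodes a phosphatase of cyclin-dependent kinases, had the value 2.20 on all 6 arrays.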
